A study of Rattus norvegicus with 6 samples.

Results

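The proteasome genes measured here are 43 rat genes with 78 array probes, out of 61657 probes in all. They were taken as every probe whose RefSeq accession maps to a rat symbol beginning Psma, Psmb, Psmc, Psmd, Psme, Psmf or Psmg and a digit, without the immunoproteasome genes Psmb8, Psmb9 and Psmb10. The rule used no measured value. It also takes in Psmc3ip, a meiotic recombination cofactor named after an ATPase that it binds, and Psme3ip1, a protein that binds the activator Psme3. No probe was matched by accession to Psmb11, Psmd11, Psmg1 or Psmg3, which were not analysed here.

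The arrays hold liver RNA of 6 male Sprague-Dawley rats, bought at 5 weeks of age and given either corn oil, the vehicle (3 animals), or bromodichloromethane at 200 mg/kg/day (3 animals). Bromodichloromethane is a trihalomethane that forms in chlorinated drinking water. The labels give the time as 28 days in one place and as 9 weeks of dosing in another, so the length of exposure is not settled. Each animal has 1 array with 1 dye. Levels below are log2 processed signals relative to the 75th percentile of the same array, and differences are treated minus corn oil.

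The proteasome degrades proteins that carry ubiquitin chains. Its core particle is a barrel of stacked rings: outer rings of alpha subunits (Psma genes) gate the entrance, and inner rings of beta subunits (Psmb genes) hold the proteolytic sites. The regulatory particle caps the barrel, with a base of ATPases (Psmc genes) that unfold the substrate and a lid of Psmd subunits that removes its ubiquitin. In most cells the subunit genes are transcribed in concert, and the transcription factor NRF1 (gene Nfe2l1) raises them together when proteasome activity is short.

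In livers of rats given bromodichloromethane, no proteasome gene passed the test, and the levels of most were nearly the same in both groups. By limma with Benjamini-Hochberg adjustment over 28995 features at an adjusted p of 0.05, 0 of the 43 genes were called, where 9.36% of all features were (5.96% with higher and 3.41% with lower treated values; of the features with a gene symbol, 7.92%). At an unadjusted limma p under 0.05, 4 of the 43 genes stood out (9.30%), Psmd14 and Psme3 at higher and Psmd9 and Psmd10 at lower values in treated livers, where 27.5% of all features did. For 8 genes (18.6%) the 2 groups had no overlap, 6 at higher and 2 at lower treated values, against 34.4% of all features (18.4% higher and 16% lower). Of the 43 differences 21 were above 0 (48.8%), as were 50.2% of those of all features. The median log2 difference over the 43 genes was -0.00095 and that over all features 0.0014. The median of the absolute differences was 0.069 against 0.20 over all features.

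**Figure D1:**
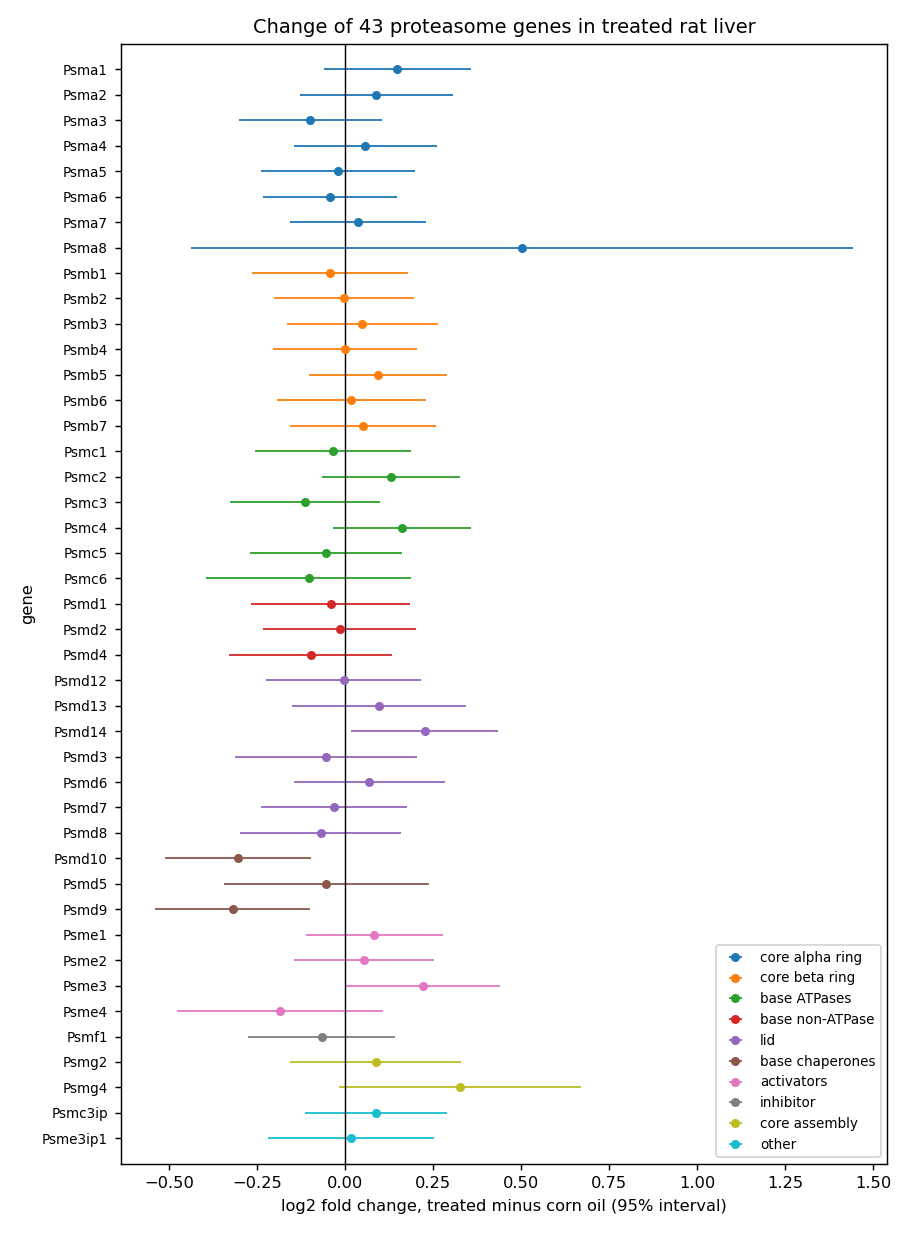
Log2 fold change (treated minus corn oil, x axis) of each of the 43 proteasome genes (y axis), with 95% intervals from limma, 3 animals a group, coloured by structural class. The intervals of 39 genes include 0, and Psma8 has the widest.

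On the scale used here, the measurements were precise enough to bound these differences. All 43 genes were well above background on all 6 arrays. The half-width of the 95% interval from limma, taken gene by gene, had a median of 0.22 on the log2 scale, and for 41 of the 43 genes the whole interval lay within a 1.5-fold difference in either direction. The exceptions were Psma8, whose interval ran from -0.44 to 1.44, and Psmg4, whose interval ran from -0.02 to 0.67. Of the 43 differences, 31 were smaller than 0.1 and 37 smaller than 0.2. The smallest difference called anywhere on the array was 0.34, which among the 43 genes the difference of Psma8 alone exceeded.

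**Figure D2:**
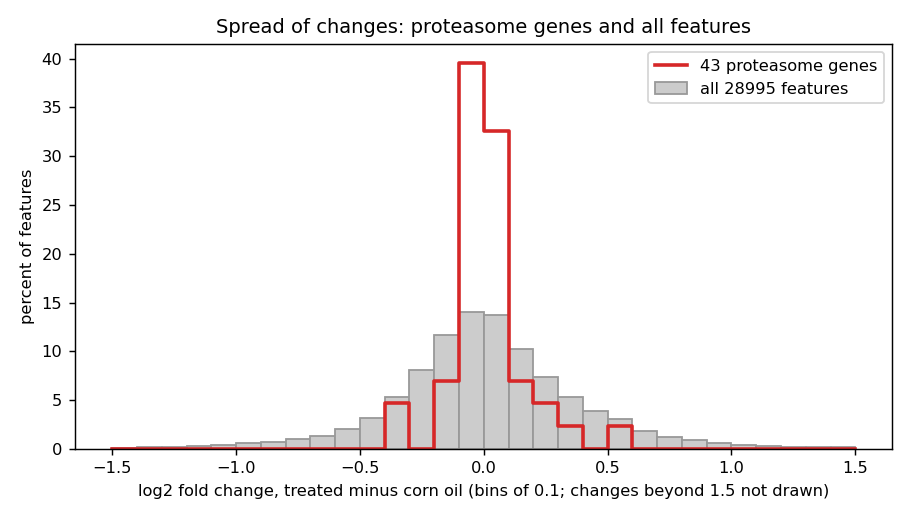
Percent of features (y axis) by log2 fold change, treated minus corn oil, in bins of 0.1 (x axis), for all 28995 features (grey bars) and the 43 proteasome genes (red line). The proteasome genes are stacked around 0, between -0.32 and 0.50.

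The alpha ring genes of the core particle had differences from -0.10 to 0.50, with 5 of 8 above 0. Psma1, an alpha subunit, lay at 4.42, 4.51 and 4.51 in the corn oil animals and at 4.68, 4.54 and 4.66 in the treated animals. The groups did not overlap, but the difference of 0.15 (SE 0.09) did not pass (limma adjusted p = 0.32). Psma4 stood at 6.31, 6.24 and 6.28 in corn oil livers and at 6.41, 6.25 and 6.35 in treated livers, with overlapping groups and a difference of 0.06 (SE 0.08). Psma3 had the lowest difference of the ring, -0.10 (SE 0.08, limma adjusted p = 0.49). Psma8 encodes an alpha subunit of spermatogenic cells. Its values were -3.57, -3.75 and -3.31 with corn oil and -2.15, -3.68 and -3.29 with treatment, so that its difference of 0.50 (SE 0.39, limma adjusted p = 0.45) rests on treated replicate 1 and was 0.06 without it. The other 3 probes of Psma8 were not well above background on any array.

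The beta ring was the most even of the larger classes, with 7 genes between -0.04 and 0.09. Psmb5, Psmb6 and Psmb7 carry the chymotrypsin-like, caspase-like and trypsin-like sites. Psmb5 lay at 5.17, 5.22 and 5.28 in corn oil livers and at 5.30, 5.28 and 5.36 in treated livers. The treated values were all above the corn oil values, by a margin that the test did not call (difference 0.09, SE 0.08, 95% interval -0.10 to 0.29, limma adjusted p = 0.50). Psmb6 was at 3.45, 3.52 and 3.49 against 3.46, 3.45 and 3.61, a difference of 0.02 (SE 0.09). Psmb7 was at 3.52, 3.55 and 3.64 against 3.69, 3.56 and 3.62, a difference of 0.05 (SE 0.09). The groups overlapped for both genes. Psmb2 had corn oil values of 5.39, 5.36 and 5.46 and treated values of 5.44, 5.33 and 5.41, which differed by -0.0043 (SE 0.08). Psmb1 had the lowest difference of the ring, -0.04 (SE 0.09).

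NRF1 and NRF2 bind antioxidant response elements, and the promoters of proteasome genes were searched for the letters of their core. The motif was TGACNNNGC, read on both strands (GCNNNGTCA on the other), in windows of 300 bases that reach from 250 bases before to 50 bases after the gene start in RefSeq's GRCr8 assembly. A match describes letters and not a bound site. Windows were found for 39 of the 43 genes, and 8 of these held the motif (20.5%), against 12.1% of 33465 windows of all genes. Of the core particle 4 of 14 windows held it (Psma3, Psmb2, Psmb5 and Psmb6), and of the regulatory particle 2 of 13 (Psmd1 and Psmd3). Psmd9 (in 2 places, of which 1 is shown) and Psme4 also held it. Among 10 NRF2-regulated enzymes 8 windows were found and 4 held it. The stretches below show the motif in capitals with 20 bases on each side, 5′ to 3′ on the gene's strand. Psmb5 and Psmb2 stand for core genes that were not called, with differences of 0.09 and -0.0043. Psmd9 stands for the member with the lowest difference, and Gpx2 and Gstp1 for enzymes that rose.
Psmb5 (chr15:32047411-32047459, minus strand): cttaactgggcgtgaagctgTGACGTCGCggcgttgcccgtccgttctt
Psmb2 (chr5:144254970-144255018, plus strand): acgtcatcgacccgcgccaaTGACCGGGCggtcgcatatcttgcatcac
Psmd9 (chr12:39018313-39018361, minus strand): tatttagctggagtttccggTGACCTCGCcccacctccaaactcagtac
Gpx2 (chr6:101230018-101230066, minus strand): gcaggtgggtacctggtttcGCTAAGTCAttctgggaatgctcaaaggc
Gstp1 (chr1:210769738-210769786, minus strand): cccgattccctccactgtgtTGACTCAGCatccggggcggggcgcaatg

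The ATPases of the base had 2 of 6 genes above 0 and a median difference of -0.05. Psmc4 lay at 2.89, 2.94 and 3.00 in corn oil livers and at 3.15, 3.07 and 3.11 in treated livers. The groups did not overlap, and the difference was 0.16 (SE 0.08, limma adjusted p = 0.25). Of the 3 Psmc4 probes, 2 gave 0.16 and 0.19 and the other gave -0.03, the widest disagreement between probes of a member. Psmc2 was the other ATPase whose groups did not overlap, at 0.13 (SE 0.08). Psmc1 was at 5.06, 4.97 and 5.16 against 5.02, 4.96 and 5.10, and its groups overlapped with a difference of -0.04 (SE 0.09). Psmc3 had the lowest difference of the ATPases, -0.11 (SE 0.09, limma adjusted p = 0.45).

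By their brightest probes, the 3 other subunits of the base lay slightly below 0. Psmd1 and Psmd2 are the large subunits on which shuttle factors dock, and Psmd4 is a ubiquitin receptor. Psmd1 had corn oil values of 6.24, 6.30 and 6.23 and treated values of 6.28, 6.08 and 6.28, in which treated replicate 2 was the low array (difference -0.04, SE 0.09). The second probe of Psmd1 gave 0.11. Psmd2 differed by -0.02 (SE 0.09), with other probes at -0.11 and 0.04, and Psmd4 by -0.10 (SE 0.10), with overlapping groups.

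In the lid, 3 of 7 genes were above 0, and the range ran from -0.07 for Psmd8 (SE 0.09) to 0.23 for Psmd14. Psmd14 is the metalloprotease that cuts ubiquitin chains off substrates as they enter. Its values were 1.64, 1.55 and 1.52 with corn oil and 1.77, 1.74 and 1.87 with treatment. All treated values were above all corn oil values, and the difference of 0.23 (SE 0.09, 95% interval 0.02 to 0.43) did not pass (limma adjusted p = 0.15). It was 0.20 on slide 1 alone and between 0.19 and 0.26 when any 1 animal was left out. The 1 probe of this gene leaves no second reading. The other lid genes, Psmd3, Psmd6, Psmd7, Psmd12 and Psmd13, lay between -0.06 and 0.09.

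The core and the regulatory particle were set against each other as a description, since their subunits are not replicates. The core particle (15 genes) had a median difference of 0.04 with 9 genes above 0, and the regulatory particle (16 genes) one of -0.03 with 5 above 0. Neither had a gene past the threshold on this scale. With spike-in scaling 14 of the 15 core genes and 10 of the 16 regulatory genes were called, where 44.8% of all features were. The gap between the medians was 0.07, or 0.06 without Psma8, and on slide 1 alone it was -0.00039. Averaged over genes on each array and centred on the corn oil mean, the core without Psma8 lay at -0.01, -0.01 and 0.03 in corn oil animals and at 0.04, -0.04 and 0.07 in treated animals. The regulatory particle lay at -0.05, 0.0028 and 0.05 in corn oil animals and at 0.05, -0.07 and 0.03 in treated animals. In both particles treated replicate 2 was below and treated replicates 1 and 3 were above the corn oil mean, and the groups overlapped. The core minus the regulatory particle was 0.03, -0.03 and -0.0057 with corn oil against 0.08, 0.03 and 0.05 with treatment, and without Psma8 it was 0.03, -0.01 and -0.02 against -0.01, 0.04 and 0.04. The groups overlapped in both.

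**Figure D3:**
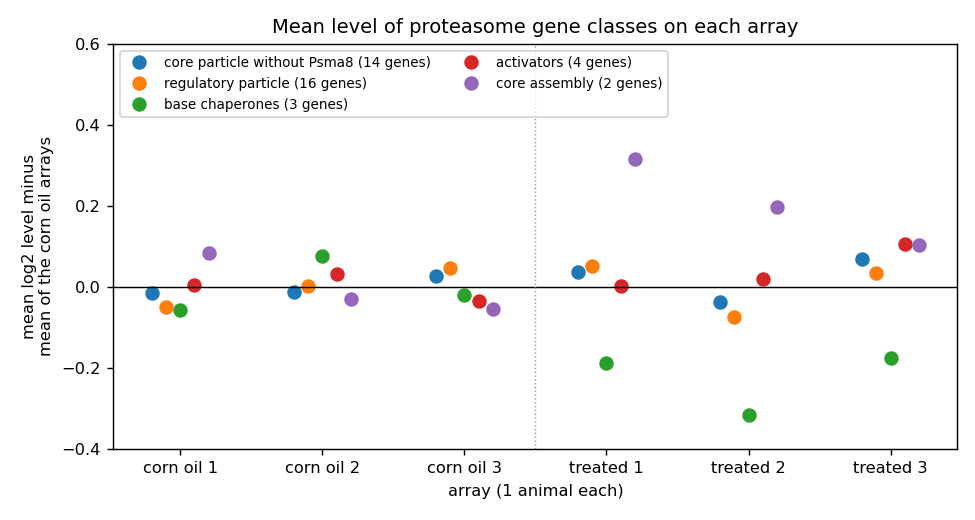
Mean log2 level of 5 classes of proteasome genes minus the mean of the corn oil arrays (y axis) on each of the 6 arrays (x axis), without error bars since each point is 1 animal. The core without Psma8 and the regulatory particle stay within 0.08 of the corn oil mean on every array, the 3 base chaperones lie between -0.32 and -0.18 on the treated arrays, and the 2 core assembly genes lie between 0.10 and 0.32 there.

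The smallest p-values belonged to assembly factors and not to subunits, although none of them passed. Psmd9, Psmd10 and Psmd5 are chaperones that hold ATPases while the base is built. Psmd9 had corn oil values of 4.81, 4.75 and 4.67 and treated values of 4.48, 4.32 and 4.45. Every treated value lay below every corn oil value, and the difference was -0.32 (SE 0.09, 95% interval -0.54 to -0.10, limma adjusted p = 0.080), or 0.80 times the corn oil level. All 3 probes of Psmd9 gave differences between -0.33 and -0.31. Psmd10, also known as gankyrin and as an oncoprotein of liver tumours, was at 1.80, 1.90 and 1.91 against 1.62, 1.49 and 1.59. Its groups did not overlap either, and the difference was -0.30 (SE 0.09, limma adjusted p = 0.079). On slide 1 alone Psmd9 stood at -0.26 and Psmd10 at -0.25. With spike-in scaling both lay above 0, at 0.16 and 0.18, and did not pass. Psmd5 had a difference of -0.05 (SE 0.12), with overlapping groups. Psmd10 was singled out after its value was seen.

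Psmg2 and Psmg4 are chaperones of the alpha ring. Psmg4 was at 3.49, 3.05 and 3.11 in corn oil livers and at 3.65, 3.55 and 3.42 in treated livers, and the groups overlapped because corn oil replicate 1 was high. The difference was 0.33 (SE 0.14, limma adjusted p = 0.20), or 0.46 without that animal (adjusted p = 0.084). The other probes of Psmg4 gave 0.42 and 0.45. With each probe tested on its own, the probe at 0.45 was the only one of 75 proteasome probes past the threshold (limma adjusted p = 0.048), where 8.52% of 39027 probes were. Psmg2 was at -0.18, 0.02 and -0.08 against 0.12, -0.02 and -0.08, and its difference was 0.09 (SE 0.10). Over the 24 genes with several usable probes, the probes of 16 had the same sign, and the spread between a gene's probes had a median of 0.08.

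**Figure D4:**
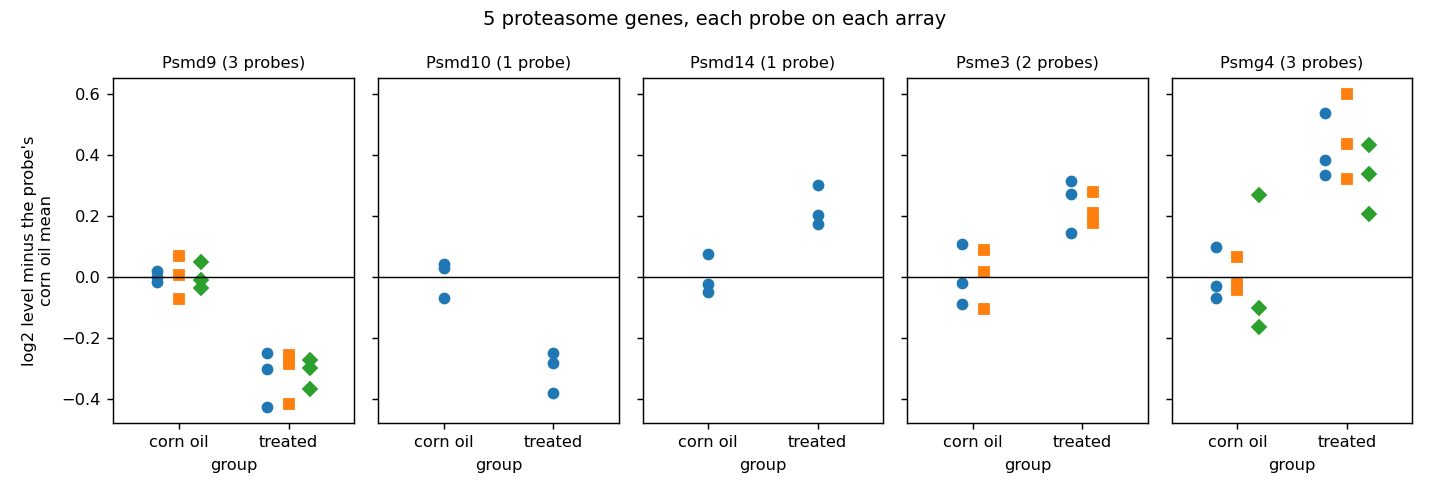
Log2 level of each usable probe minus its mean in corn oil livers (y axis) by group (x axis) for Psmd9, Psmd10, Psmd14, Psme3 and Psmg4; each point is 1 animal and each marker shape 1 probe. All points of the 3 Psmd9 probes lie below 0 in treated livers, and the probes of Psmg4 lie above it.

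Of the activators, which open the core without the regulatory particle, Psme3 lay at 2.76, 2.95 and 2.88 with corn oil and at 3.04, 3.14 and 3.07 with treatment. Psme3 encodes the nuclear activator PA28 gamma. Its groups did not overlap, and the difference of 0.22 (SE 0.09, 95% interval 0.0032 to 0.44) did not pass (limma adjusted p = 0.18). The second Psme3 probe gave 0.24, and the difference on slide 1 alone was 0.18. Psme1 and Psme2, the interferon-inducible activator pair, differed by 0.08 (SE 0.08) and 0.05 (SE 0.08) with overlapping groups. Psme4, the large activator PA200, was at 2.22, 2.20 and 2.13 against 1.95, 1.82 and 2.22, where treated replicate 3 reached the corn oil level (difference -0.19, SE 0.12, limma adjusted p = 0.37). Another Psme4 probe was at 1.85, 1.78 and 1.74 against 1.70, 1.44 and 1.48, without overlap (-0.25), and the remaining probe gave -0.14. Psmf1, an inhibitor of the core, differed by -0.07 (SE 0.09). Psmc3ip and Psme3ip1 stood at 0.09 (SE 0.08) and 0.02 (SE 0.10).

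The immunoproteasome genes replace catalytic beta subunits in cells exposed to interferon. None of the 3 passed, and they did not lie on one side of 0, except with spike-in scaling, where all were above 0 (0.26, 0.55 and 0.82 for Psmb8, Psmb9 and Psmb10) and the last 2 passed. Psmb8 was at 3.78, 3.90 and 3.60 against 3.40, 3.70 and 3.52, a difference of -0.22 (SE 0.12). Psmb9 differed by 0.07 (SE 0.12). Psmb10 was at 4.72, 4.64 and 4.48 against 5.01, 5.01 and 4.83, without overlap, and its difference of 0.34 (SE 0.10) missed the threshold (limma adjusted p = 0.096). Of 11 measured genes of interferon response and peptide loading, 4 lay above and 7 below 0, with a median difference of -0.03. Past the threshold 2 rose and 0 fell, where 9.36% of all features were called. The 2 that rose were Irf1, a transcription factor, at 1.24 (SE 0.21, limma adjusted p = 0.023) and Tapbp, the peptide loading chaperone tapasin, at 0.38 (SE 0.08, limma adjusted p = 0.037). When each animal was left out in turn, Irf1 passed in 1 of 6 fits and Tapbp in 0 of 6.

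Regulators of proteasome genes had a median absolute difference of 0.18, against 0.069 for the proteasome genes and 0.20 over all features. Of the 11 measured 0 passed, where 9.36% of all features did. For 5 the groups had no overlap, as for 34.4% of all features. The smallest p belonged to Foxm1, a transcription factor of dividing cells, at -0.43 (SE 0.11, limma adjusted p = 0.064). Mafk, a partner of NRF1 and NRF2 on DNA, came next at 0.37 (SE 0.13, limma adjusted p = 0.14). Nfe2l1 was at 0.77, 0.72 and 0.76 in corn oil livers and at 1.52, 0.71 and 0.55 in treated livers, so that treated replicate 1 alone lay above the others (difference 0.18, SE 0.25). Its difference was 0.77 on slide 1 alone, where that animal is the whole treated group, and -0.12 without that animal. Nfe2l2, the gene of NRF2, differed by 0.20 (SE 0.17). Of 7 measured proteasome-bound proteins 0 passed, and at the gene level the smallest p among them belonged to the ubiquitin receptor Adrm1 at 0.26 (SE 0.11) and the lid subunit Sem1 at -0.17 (SE 0.08).

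Of 12 measured genes of ubiquitin supply 1 rose and 0 fell, where 9.36% of all features were called (5.96% higher and 3.41% lower). Rps27a, which encodes ubiquitin fused to a ribosomal protein, was at 6.85, 6.73 and 6.86 against 7.18, 7.23 and 7.27, and its difference was 0.41 (SE 0.08, limma adjusted p = 0.037). Of 7 ubiquitin shuttle genes 1 fell. Ubqln1, which carries ubiquitinated proteins to the proteasome, was at 4.23, 4.27 and 4.17 against 3.91, 3.83 and 3.83, a difference of -0.37 (SE 0.08, limma adjusted p = 0.044), but 0.12 with spike-in scaling. The calls of Rps27a and Ubqln1 ended when any 1 animal was left out (adjusted p from 0.067 to 0.12 and from 0.072 to 0.14).

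Enzymes regulated by NRF2 gave a different count on the same arrays. Of 10 measured genes 5 rose and 0 fell, where 9.36% of all features were called, and their median difference was 0.72. The list did not rise as a whole. Gclc (0.11), Gclm (-0.13), Txnrd1 (0.01) and Hmox1 (0.16) had overlapping groups and did not pass. Srxn1, at 0.76, had no overlap but did not pass either. Gpx2, a glutathione peroxidase, stood at 3.82 (SE 0.67), Gstp1, a glutathione transferase, at 2.80 (SE 0.47), Nqo1, a quinone reductase, at 0.71 (SE 0.15) and Me1, malic enzyme, at 0.73 (SE 0.14). Each of these 4 calls ended in at least 4 of the 6 fits that left out 1 animal. The 10 enzymes were listed with their response in these rats known, so the contrast with the proteasome genes is a description and was not tested.

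The scale of the arrays sets the sign of values this close to 0. With the median in place of the 75th percentile, the median difference of the 43 genes was 0.06 and that of all features 0.06, with 0 of the 43 called against 10.2% of all features. After quantile normalization the medians were -0.03 and 0.01, with 0 called against 9.36%, and after normexp background correction 0.01 and -0.03, with 0 called against 11.2%. Scaling by spiked-in control transcripts moved all features upwards by a median of 0.48 and the proteasome genes by a median of 0.48. All 43 genes were then above 0 and 31 were called (72.1%), where 44.8% of all features were (43.7% higher). Relative to the median of all features 21 of the 43 genes were above it under that scaling. That count could not change with the scaling, which shifts every feature of an array by the same amount. Whether the RNA per cell of these livers differed cannot be read from these arrays, and in bulk tissue fewer cells of a type and less RNA per cell cannot be told apart.

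**Figure D5:**
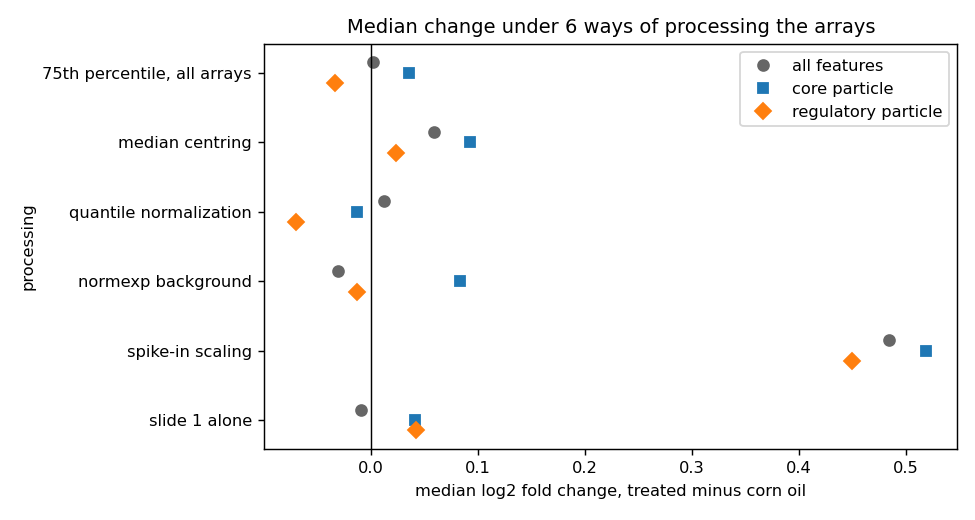
Median log2 fold change, treated minus corn oil (x axis), of all features, the core particle and the regulatory particle under 6 ways of processing the arrays (y axis); points have no error bar. With spike-in scaling all 3 medians lie between 0.45 and 0.52, and with the other settings they lie between -0.07 and 0.09.

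Between 61.3% and 66.9% of probes were well above background, and no probe was saturated. Slide 1 held the arrays of all corn oil animals and of treated replicate 1, and slide 2 the other 2 treated arrays. On slide 1 alone the treated group is 1 animal, assumed to vary like the corn oil animals, and the median difference of the proteasome genes was 0.04, with 28 of 43 above 0. The fit with slide as a fixed block gives the same differences, since only slide 1 holds both groups. Of the 43 genes 0 were called in the first (0.414% of features) and 0 in the second (1.21%). With the replicate number as a block 0 were called, against 1.22%. All 7 hepatocyte markers were well above background in every animal. Of these 6 lay below 0 (median -0.25), and 5 had no overlap. Over all features 34.4% had no overlap (18.4% higher and 16% lower), and 9.36% were called. The summed relative signal of the hepatocyte markers was 4330 to 4840 with corn oil and 3670 to 4170 with treatment. The 1 called was Serpina1, which fell (-0.50, SE 0.08, limma adjusted p = 0.023; -0.02 with spike-in scaling). Of the 9 macrophage markers, whose summed relative signal was 191 to 245 with corn oil and 188 to 237 with treatment, 0 passed. Of the 7 T and NK cell markers all lay above 0, and the summed signal was 3.42 to 3.92 against 3.91 to 4.68. The 1 past the threshold, Cd3e, was not well above background in any corn oil animal and passed the filter only through the treated group. By the processed signals Cd3e was at least 1.33-fold higher there. With normexp its log2 difference was 0.10, which is below that bound, so the bound did not hold under that background correction. Cd3e was past the threshold in 1 of 6 fits that left out an animal. The 2 neutrophil markers measured, S100a8 and S100a9, stood at 0.50 (SE 0.20) and 0.43 (SE 0.17) without overlap and did not pass. Of the 4 endothelial markers, whose summed signal was 44.8 to 47.7 against 37.6 to 40.1, Lyve1 fell (-0.56, SE 0.11; -0.07 with spike-in scaling, which ends the call). Of the 4 bile duct markers, whose summed signal was 1.64 to 1.81 against 2.46 to 3.62, Epcam rose (1.12, SE 0.18) and is part of that sum. Krt19 (0.16), Krt7 (0.12) and Spp1 (0.22) had overlapping groups and did not pass. The calls of Serpina1 and Lyve1 ended when any 1 animal was left out, and that of Epcam held in 3 of 6 such fits. The part of these cells in the proteasome values was not tested.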

How the data were processed

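The submitters' processing notes name Agilent Feature Extraction 10.7. Per the file headers, each spot has a linear intensity from which the software subtracted background. A deposited value table holds a linear ratio, from the values the processed signal over the array's 75th percentile, and served as an alternative. The authors' tests are not given in the sources used here.

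Log2 processed signals minus the array's 75th percentile were used, without control spots and 27 probes with outlier flags. Probes were kept when well above background on all 3 arrays of a group. The brightest probe stood for a symbol, named by RefSeq accession (GRCr8), leaving 28995 features. Treated and corn oil arrays were compared by limma 3.58.1 (R 4.3.3; lmFit, eBayes, two-sided, Benjamini-Hochberg), and the script was tested on simulated data. SE and 95% intervals are moderated. Precision is limited by the number of arrays.

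The members and lists were chosen with earlier results of these data known, so no list was tested. Named members were those fixed for their role and the highest and lowest of each class; Psmd10 was added after its values were seen. The alternatives were other scalings, normexp (on median signals), no dim-probe filter, other probe rules, slide or replicate blocks, slide 1 alone and leaving out each animal. The labels describe separate animals. Some genes of the context lists are not reported here.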

Additional observations from a re-analysis of the deposited data

How the results depend on the processing

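The count of 0 proteasome genes past the threshold and the median difference over them were recomputed under 18 alternatives. The count differed from 0 with spike-in scaling (31) and with every probe on its own (1 probe). The median difference moved by more than the spread between animals with median centring (0.056), with spike-in scaling (0.48), and without treated replicate 2; over the fits that left out 1 animal it ranged from -0.033 to 0.044. The gap between core and regulatory particle moved with slide as a fixed block and on slide 1 alone (-0.00039 in both, which give the same differences and rest on 1 treated animal). Median centring and spike-in scaling could not move this gap, since they shift every feature of an array alike. The number of all features called went from 2715 to 12996 with spike-in scaling, 609 without the filter on dim probes, 350 with slide as a fixed block, 120 on slide 1 alone, 353 with the replicate block, and 335 to 1232 when 1 animal was left out.

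For 29 named genes 493 values were recomputed. Of these 52 changed sign and 19 passed the threshold, all 19 with spike-in scaling, and 9 genes kept their sign throughout. With spike-in scaling Psmb1, Psmb2, Psmd1 and Psmd2, which lay below 0, were above it and passed (0.44, 0.48, 0.44 and 0.47).

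Whether the replicate numbers pair the animals cannot be told from these arrays. Deviations from the group mean correlated at 0.0921, 0.0187 and 0.117 between arrays of the same number. Between arrays of different numbers they correlated at -0.0979 to 0.0023. These correlations were small, but each array correlated best with its own number. With the replicate block 0 proteasome genes passed. With 3 animals a group and none of these alternatives, differences below about 0.34 on the log2 scale were not called for any feature.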
